A study of Mus musculus with 26 samples.

Results

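Assays A12 and B64 are 2 of the 315 assay positions in a mouse microRNA (miRNA) panel read by stem-loop RT-qPCR. They were chosen by their Ct values in pancreatic islets and hepatocytes, as assays high in the former, and they are followed here across all 26 samples in 7 groups. The measured quantity is the threshold cycle (Ct), the PCR cycle at which the fluorescence of an amplicon crosses a set level, so that a lower Ct means more of the miRNA. Because islets and hepatocytes entered the choice, every value in those groups is a description with no test. The comparisons among the other groups did not enter it and were tested.

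Mature miRNAs are short RNAs that guide Argonaute proteins to target messages and lower their translation or stability. Pancreatic islets are clusters of hormone-secreting endocrine cells, among them the beta cells that make insulin and the alpha cells that make glucagon, and a few miRNAs are known to be far more abundant in such cells than in most other tissues. Hepatocytes, the metabolic cells of the liver, arise from the same germ layer, the endoderm. The files name assays by position on lettered plates A to D and not by miRNA, and no name in the RefSeq tables used here matched either position. No sequence is therefore shown, the roles of the miRNAs behind A12 and B64 are not stated, and the labelled cell types could not be checked against marker miRNAs.

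The islets (n = 3) and hepatocytes (n = 3) were primary cells isolated from adult C57BL/6 mice. The pluripotent groups were 5 clones of induced pluripotent stem cells (iPSC) derived from tail-tip fibroblasts, and the embryonic stem cell (ESC) lines D3 (n = 3) and R1 (n = 3). All of these were grown with LIF on inactivated mouse embryonic feeder fibroblasts, whose share in the RNA was not tested. The parent tail-tip fibroblasts gave 5 samples. Clones 2 and 3 were also treated, without feeders, with activin A, a TGF-beta superfamily factor with which pluripotent cells can be steered to endoderm, for 5 days at 100 ng/ml (n = 2 each, 4 treated samples in all). The sample characteristics give the same figure per microlitre. Except for the clones, nothing in the labels says that samples of a group were separate cultures or animals, so p-values measure only the spread between the samples at hand, and that spread may be technical. In such bulk RNA, fewer cells of a type and less RNA per cell cannot be told apart.

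Between 187 and 276 of the 315 assays per sample reached a Ct below 35. The lowest count, 187, was in fibroblast replicate 5, where neither A12 nor B64 had a Ct. To set samples side by side, a log2 level was taken as the mean Ct of 87 reference assays of plates A and B, those below 35 in all 26 samples, minus the Ct of the assay. A Ct above 35, or a missing one, was replaced by 35. Such a level is an upper bound that moves with the reference of its sample and not with the assay. The reference mean Ct was in islets 25.6 ± 0.876 (SD, n = 3), in hepatocytes 26.4 ± 0.780 (SD, n = 3) and between 23.2 and 29.9 in the 5 fibroblast samples, the widest range of the groups. Neither A12 nor B64 is among the reference assays.

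Assay A12 had a Ct of 17.0, 16.0 and 18.3 in islet replicates 1, 2 and 3. In hepatocytes it had 32.6, 33.3 and 33.2. The 3 islet samples lay close together and far below every other sample in Ct. Across the 23 samples outside islets, A12 ranged from 29.2 to 39.4 with a median of 33.0, was below 35 in 19 samples and had no Ct in 1. On the log2 scale the islet level of A12 was 8.49 ± 0.912 (SD, n = 3) and the hepatocyte level -6.64 ± 0.408 (SD, n = 3), a difference of 15.13. If each cycle doubled the product, which was not measured, that difference would be a fold of 35900. Among 276 assays with a Ct below 35 in most samples of either tissue it was the largest difference, where the median over all of these was 0.46.

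Assay B64 had a Ct of 15.5 in islet replicate 1, 28.02 in replicate 2 and 27.98 in replicate 3. In hepatocytes it had 33.8, 37.3 and 35.6, with 1 of 3 samples below 35. Replicate 1 thus lay far below the other islet samples, which differed by 0.041 cycles, and all 3 lay below the hepatocytes in Ct. Whether the 15.5 reflects true amplification of the miRNA cannot be told from the deposited table. The islet log2 level of B64 was 1.76 ± 6.50 (SD, n = 3) and the hepatocyte level -8.19 ± 0.108 (SD, n = 3), where 2 of the 3 values are set by the limit. The difference was 9.94, the second largest of the 276, just ahead of A57 at 9.91 and A87 at 9.74. Replicate 1 carried much of it. Without islet replicate 1 the difference was 6.20, and without replicates 2 and 3 in turn it was 12.06 and 11.57.

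**Figure D1:**
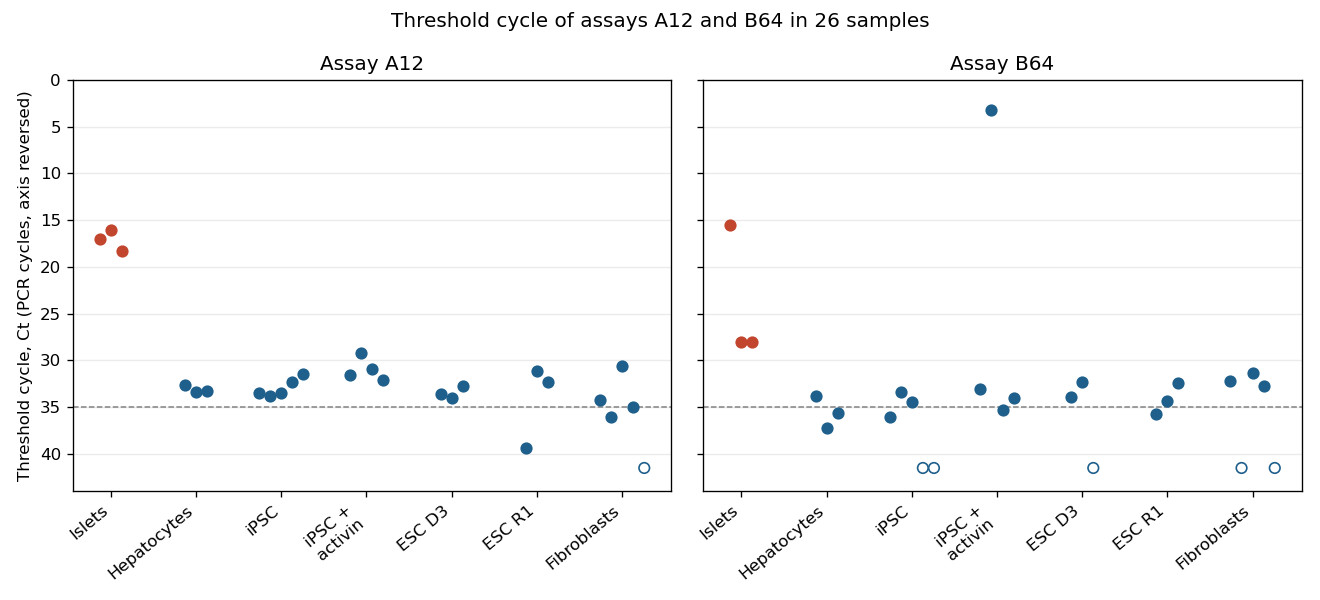
Threshold cycle (PCR cycles, reversed axis, so that more RNA is higher) of A12 (left) and B64 (right), 1 point per sample, islets in red; open circles below the axis range of the data are samples with no Ct, and the dashed line marks the limit of 35. The 3 islet points of A12 sit at 16.0 to 18.3, apart from all other samples, whereas B64 has a single islet point at 15.5 and a single activin-treated point at 3.26.

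The distance from islets to the rest was measured in the same way for every assay, as the lowest islet level minus the highest level elsewhere. For A12 the lowest islet level was 7.76 and the highest of the other 23 samples was -2.66, reached in replicate 2 of ESC line R1. The gap of 10.42 on the log2 scale was the widest of the 276 assays. Islets lay above all 23 other samples in 18 of these assays, a background of 6.52%. For B64 the islets did not stand above all others, because of a single activin-treated sample. Leaving that sample out after seeing it, the lowest islet level of -2.48 was above the highest of the other 22 samples, -4.85, with a gap of 2.37 that had place 3. The background was then 6.88%. Against hepatocytes alone, the islets lay above in 34.4% of the assays. A12 and B64 were chosen as high in islets over hepatocytes. Nothing is therefore read from their places in these gaps, or in the ranking of islets minus hepatocytes above.

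The order of all assays by Ct within each sample needs no reference. In islet replicates 1, 2 and 3, A12 had place 4 of 299, 1 of 296 and 3 of 285 assays with a Ct, counted from the lowest Ct. In every sample outside islets where it had a Ct, its place was between 172 and 287. B64 had place 2 of 299 in islet replicate 1, and 153 of 296 and 126 of 285 in replicates 2 and 3. Outside islets its place was between 198 and 276, with the exception of the same treated sample, where it was 2 of 289. Assays amplify with different efficiency, so a place is compared here only for 1 assay between samples.

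**Figure D2:**
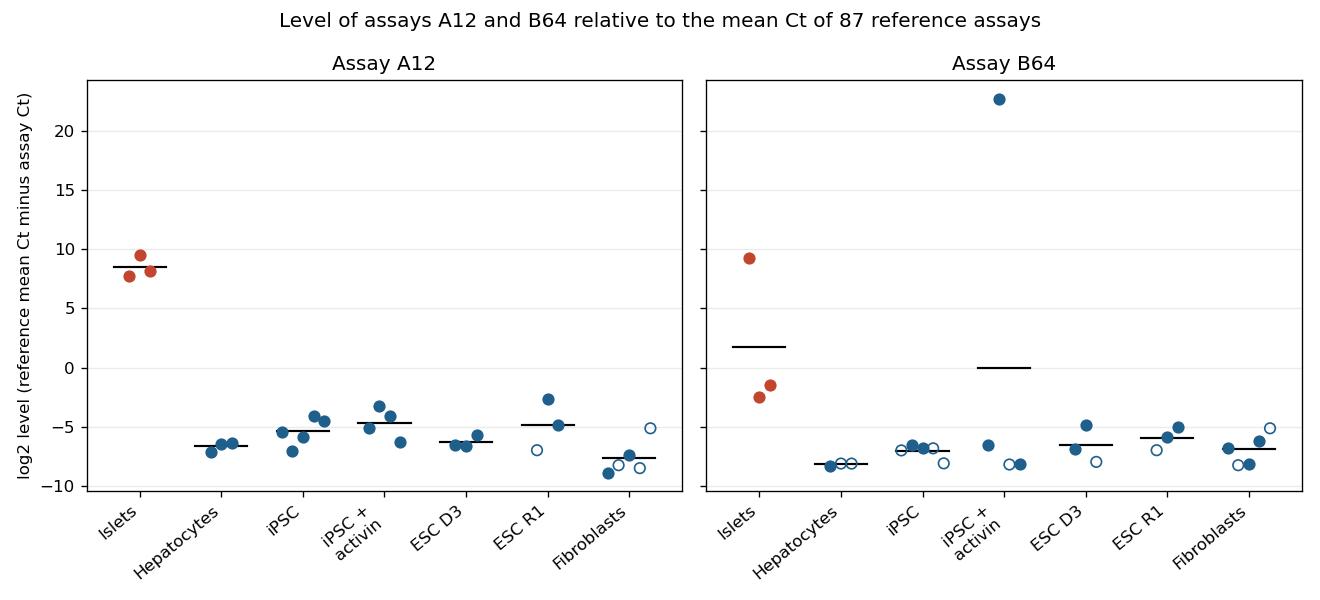
Log2 level (mean Ct of 87 reference assays minus assay Ct) of A12 and B64 by sample, with the group mean as a horizontal bar; open circles are values set to the limit of 35. The means of A12 outside islets lie between -7.64 and -4.66. The B64 means of islets and treated iPSC are each raised by 1 high sample, without which they are -1.99 and -7.63.

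The spread among the islet samples separated the 2 assays. The SD of Ct over the 3 islet samples was 1.14 for A12, near the median of 1.13 over 251 assays below 35 in all 3, and 7.22 for B64, the fifth largest. Islet replicate 1 had lower Ct values in general, by a median of 1.07 cycles against the mean of replicates 2 and 3. A12 was lower there by 0.183 cycles, and B64 by 12.5 cycles. A drop of more than 10 cycles in replicate 1 occurred in 4 of the 251 assays. The others were A65, with Ct values of 7.75, 23.9 and 26.6 in replicates 1 to 3, A21, with 16.4, 33.4 and 33.1, and C26, with 19.6, 34.6 and 32.8. A18 followed with 21.2, 27.5 and 30.2. None of the 251 assays was higher by more than 10 cycles in replicate 1. A11, which is not among the 251, had 36, 34.9 and 10.7 in replicates 1 to 3. A drop of more than 10 cycles against the other islet samples occurred in 0 of the 251 for replicate 2 and in 1 for replicate 3. A21, C26 and A18 were, like B64, above 32 in every hepatocyte sample, whereas A65 had 10.2, 25.2 and 24.9 there. The labels give no dissection, purity or batch for the islet samples, and whether these differed was not tested.

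**Figure D3:**
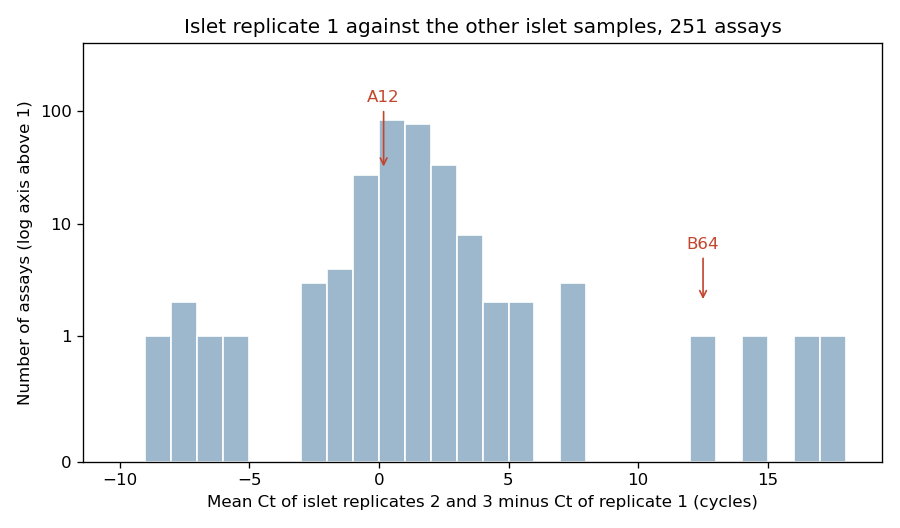
Histogram over 251 assays of the Ct in islet replicate 1 subtracted from the mean Ct of replicates 2 and 3 (cycles; counts on a log axis above 1). Most assays, A12 at 0.183 among them, lie near the median of 1.07, and B64 at 12.5 is in a group of 4 assays beyond 10 cycles.

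Outside islets, A12 was low in all groups, and the order of the group means mostly fell within their spread. From high to low, the log2 level was -4.66 ± 1.31 in activin-treated iPSC (SD, n = 4), -4.83 ± 2.17 in ESC R1 (SD, n = 3), -5.41 ± 1.15 in untreated iPSC (SD, n = 5), -6.30 ± 0.511 in ESC D3 (SD, n = 3), -6.64 in hepatocytes and -7.64 ± 1.50 in fibroblasts (SD, n = 5). Each group overlapped with the next in this order. The step from islets to the highest of them was 13.16, a description only, since islets entered the choice of A12. Without replicate 2 of treated clone 2, ESC R1 came before the treated cells, at -4.83 against -5.14.

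For B64 the groups outside islets could hardly be ordered. Its Ct was below 35 in 12 of the 22 samples that remain without the treated sample at 3.26, between 31.3 and 37.3 where measured, and absent in 5. The log2 level was -5.96 ± 0.992 in ESC R1 (SD, n = 3), -6.57 ± 1.59 in ESC D3 (SD, n = 3), -6.93 ± 1.32 in fibroblasts (SD, n = 5), -7.06 ± 0.606 in untreated iPSC (SD, n = 5) and -7.63 ± 0.963 in the 3 remaining treated samples (SD, n = 3). Neighbours in this order overlapped, and so did the treated cells and the hepatocytes at the end of it. With all 4 treated samples the treated mean was -0.04 ± 15.2 (SD, n = 4), which put that group next to islets.

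Reprogramming was asked about through iPSC against their parent fibroblasts. In iPSC replicates 1 to 5, A12 had a Ct of 33.5, 33.8, 33.5, 32.3 and 31.4. In fibroblasts it had 34.2, 36, 30.6 and 35.003 in replicates 1 to 4 and none in replicate 5. The 36 of replicate 2 is 1 of 75 values in the table at exactly that number, and whether these were measured is not known; it enters the levels as 35 in any case. The raw Ct values of the groups overlapped. Relative to the reference mean, the level of A12 was higher in iPSC by 2.23 on the log2 scale (SE 0.83, limma adjusted p = 0.0301). Here limma called 58.7% of 271 assays, and the median difference of all of them was 0.67, so that a call is common in this comparison. The highest fibroblast level, -5.14, belonged to replicate 5, which had no Ct and whose level is set only by its reference of 29.9. Relative to RNU6, a spliceosomal RNA to which the authors normalized, the difference of A12 was -0.75 (SE 0.89, limma adjusted p = 0.532), and 50.6% of the assays were called. The median difference of all assays relative to RNU6 was -1.85. A12 thus had no direction that held under both references, although its difference lay above the median of the assays under each. Relative to the reference mean, the limma adjusted p of A12 rose to 0.0765 and 0.0643 without iPSC replicate 4 or 5. Without fibroblast replicate 1, 2 or 4 it rose to 0.0798, 0.0638 and 0.0683. It stayed below 0.05 without iPSC replicate 1 (0.0496), 2 (0.0166) or 3 (0.0411) or fibroblast replicate 3 (0.0425) or 5 (0.00486). The exact permutation p, two-sided and unadjusted, was 0.0397.

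B64 had a Ct of 36.1, 33.4 and 34.5 in iPSC replicates 1 to 3 and none in replicates 4 and 5. In fibroblasts it had 32.2, 31.3 and 32.7 in replicates 1, 3 and 4 and none in replicates 2 and 5. The measured fibroblast values were all lower in Ct than those of iPSC, while both groups had 2 samples without a Ct. The log2 difference of iPSC minus fibroblasts was -0.14 (95% interval -4.17 to 3.90, limma adjusted p = 0.951) relative to the reference mean and -3.12 (interval -7.59 to 1.35, adjusted p = 0.255) relative to RNU6. These intervals are wide because limma shares 1 spread per assay over the groups, and the B64 value at 3.26 enters it. With Ct values below 12 treated as missing, the difference relative to the reference mean stayed at -0.14 and its SE went from 1.91 to 0.71.

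Against the same fibroblasts, ESC of both lines gave a similar picture. A12 had a Ct of 33.6, 34.1 and 32.7 in the 3 samples of D3 and of 39.4, 31.1 and 32.3 in those of R1. Its level was higher than in fibroblasts by 2.07 on the log2 scale (SE 0.80, limma adjusted p = 0.0366), in a comparison where 54.3% of 276 assays were called and the median difference was 0.71. A12 was below 35 in 5 of 6 ESC but 2 of 5 fibroblast samples, so it entered this test only through ESC. Its p is not taken as support for a difference here either. The exact permutation p, two-sided and unadjusted, was 0.0563. The limma adjusted p rose above 0.05 without fibroblast replicate 1 (0.0971), 2 (0.079), 3 (0.0531) or 4 (0.0885). It also did so without D3 replicate 2 (0.0504) or 3 (0.075) or R1 replicate 2 (0.105) or 3 (0.057). It stayed below 0.05 without fibroblast replicate 5 (0.00564), D3 replicate 1 (0.0488) or R1 replicate 1 (0.00819). RNU6 values for ESC were not analysed here. B64 had a Ct of 33.9 and 32.3 in D3 replicates 1 and 2, none in replicate 3, and 35.7, 34.3 and 32.4 in R1, and its difference was 0.66 (95% interval -3.20 to 4.52, limma adjusted p = 0.773). Both of these comparisons share the fibroblast samples, so they are not separate evidence.

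Between iPSC and ESC, which asks how induced and embryonic pluripotent cells differ, neither assay passed the test. The log2 difference was 0.16 for A12 (95% interval -1.53 to 1.85) and -0.80 for B64 (interval -4.66 to 3.07), with a limma adjusted p of 0.993 for each. Limma called 0 of 273 assays (0%), with 16 at an unadjusted p under 0.05. Between D3 and R1 the differences were -1.47 for A12 (interval -3.75 to 0.81) and -0.61 for B64 (interval -5.83 to 4.60), with 0 of 273 assays called and 4 at an unadjusted p under 0.05. A 2-fold difference lies within all 4 intervals, so similarity of these groups is not shown.

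**Figure D4:**
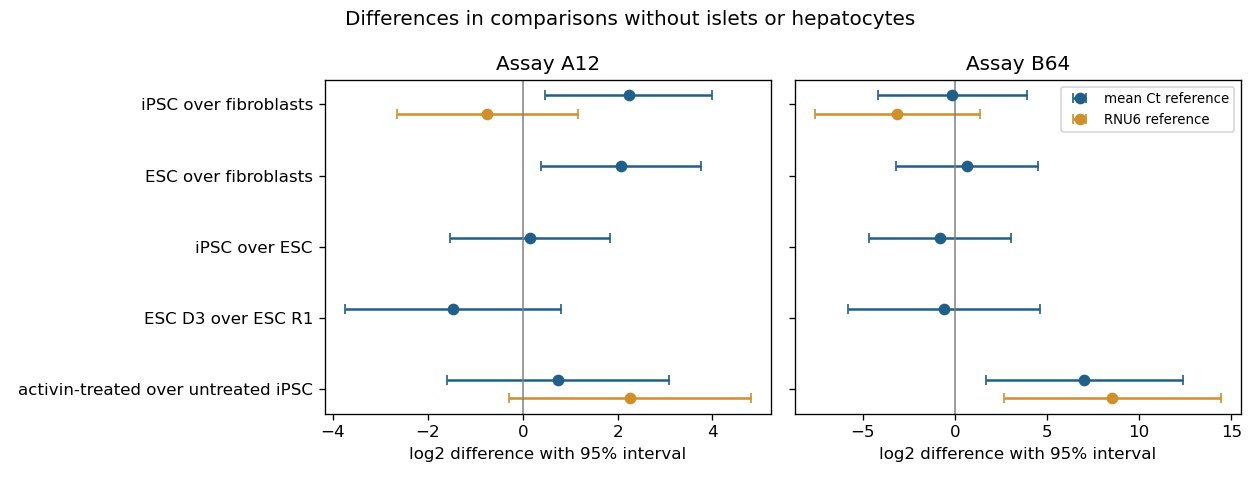
Log2 differences (first group minus second, with 95% intervals from limma) of A12 and B64 in the comparisons that leave out islets and hepatocytes, relative to the mean Ct of the reference assays (blue) and, where it was recovered, to RNU6 (orange). The A12 difference of iPSC over fibroblasts is 2.23 with the first reference and -0.75 with the other, and the B64 difference under activin rests on a single sample.

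Activin treatment, a first step towards endoderm, was the remaining comparison, in which feeder removal went together with treatment. A12 had a Ct of 31.6 and 29.2 in the treated samples of clone 2, against 33.8 in that clone untreated, and of 30.9 and 32.1 in clone 3, against 33.5 untreated. All 4 treated samples were thus lower in Ct than the untreated sample of their own clone. The reference mean Ct was also lower in treated cells, between 25.9 and 26.8 against 26.8 to 28.2 untreated. Relative to it, treated minus untreated was 1.95 and 3.79 in clone 2 and 1.79 and -0.41 in clone 3. Over all clones the log2 difference was 0.74 (95% interval -1.60 to 3.08, limma adjusted p = 0.963). With each clone set against itself it was 1.78 (SE 0.96, adjusted p = 0.838), and relative to RNU6 it was 2.26 (SE 1.19, adjusted p = 0.27). The median difference over all 284 assays tested was -0.11 relative to the mean Ct and 1.68 relative to RNU6. Much of the 2.26 is thus shared with the panel. Limma called 0 of 284 assays (0%) relative to either reference, with 23 and 56 at an unadjusted p under 0.05 for the mean Ct and RNU6.

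B64 had a Ct of 33.0 in replicate 1 of treated clone 2 and 3.26 in replicate 2, a distance of 29.8 cycles between samples of 1 clone under 1 treatment. In treated clone 3 it had 35.3 and 34.0. Untreated clones 2 and 3 had 33.4 and 34.5, in the range of the 3 other treated samples. Whether this value is true amplification cannot be told from the table either. A Ct of 3.26 is among the lowest there, where 18 of 7240 values were below 12 and 6 were below 5, in 4 samples. The same treated sample held another of these 6, assay B26 at 2.82, for which the other treated samples had a median of 28.5. Its remaining assays did not stand apart in general, with a median drop of 0.103 cycles against the other treated samples. With this sample the log2 difference of treated over untreated iPSC was 7.03 for B64 (SE 2.52, limma adjusted p = 0.244, unadjusted p = 0.0129). Without it the difference was -0.29 (SE 0.94, adjusted p = 0.993). The authors' deposited table, in which values above 0 stand for less RNA in the group named first, has 8.54 for B64 and 2.26 for A12 in untreated against treated iPSC. That table's values equal differences of mean normalized Ct over the samples with a Ct, so the 3.26 is part of the former.

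The authors' deposited table gives -18.35 for A12 and -14.11 for B64 in islets against hepatocytes, both meaning more RNA in islets. Relative to RNU6 with the limit at 35, the values of islets minus hepatocytes were 18.35 for A12 and 13.16 for B64, the latter smaller because the hepatocyte values above 35 were set to the limit. For iPSC against fibroblasts the authors' deposited table has 0.18 for A12 and 2.77 for B64, both meaning less RNA in iPSC. These average only the samples with a Ct. The -0.75 and -3.12 relative to RNU6 given above, which also mean less RNA in iPSC, have missing values and those above 35 set to 35.

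The assays whose level followed A12 most closely over the 26 samples, by Pearson's r, were B56 (r = 0.860), A87 (0.846), A48 (0.842), A04 (0.836) and B21 (0.828), out of 304 assays compared. A04 had a Ct of 18.7, 16.4 and 22.3 in islets and was measured in every sample, with 24.2 to 29.8 outside islets. A87 had 22.9, 22.8 and 24.9 in islets and between 26.2 and 37.7 elsewhere. B56 had 26.6, 28.3 and 28.6 in islets, no Ct in hepatocytes, and was below 35 in 9 of 26 samples. A48 and B21 were below 35 in 10 and 11. These correlations rest largely on the 3 islet samples, and all samples share their reference and depth across assays.

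For B64 the closest were B26 (r = 0.811), C02 (0.478), A12 (0.446), A68 (0.429) and B21 (0.420). B26 reached that place through the treated sample at 2.82. Its Spearman rho with B64 was 0.082, and its Ct values of 27.3, 30.1 and 29.9 in islets overlapped with the 29.8, 29.7 and 30.9 of hepatocytes, a log2 difference in level of 0.23. Without that sample, left out after seeing it, the closest to B64 were A18 (r = 0.877), A12 (0.767), B56 (0.759), A21 (0.736) and B21 (0.707) over 25 samples. A18 and A21 are among the assays that dropped in islet replicate 1. The r of 0.767 between A12 and B64 (Spearman rho 0.456) includes the islets, on which A12 and B64 were chosen, so nothing is read from it. A12 and B64 correlated with r = 0.446 over 26 samples, the islets again among them, and 0.394 (Spearman rho 0.301) over the 23 outside islets. Those 23 still hold the treated sample at 3.26, with a B64 level of 22.7 against at most -4.85 in the other 22. No r was taken without both it and the islets, so the 0.394 does not show that the assays follow each other there.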

How the data were processed

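Per the labels' protocols, each reverse transcription used 5 ng of total RNA, with 40 PCR cycles for 303 miRNAs, and the authors normalized Ct to RNU6. The deposited Ct table holds raw cycles for 315 positions in 26 samples; how the Ct threshold was set is not stated there. Of 8190 values, 950 have no Ct and 75 are exactly 36. The authors' deposited fold changes are on a log2 scale and equal differences of mean normalized Ct. Least squares on both tables recovered the RNU6 Ct of 20 samples, up to 1 constant for iPSC and fibroblasts and another for islets and hepatocytes, so RNU6 levels are compared only within these.

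All levels use the mean Ct of assays below 35 in all samples (87 for plates A and B, 26 for C, 9 for D), since RNU6 was not recovered for ESC. Limma 3.58.1 (lmFit and eBayes, R 4.3.3) was fitted across all assays below 35 in 50% or more of a group's samples, for either group, over the 20 samples outside islets and hepatocytes, with treated duplicates of a clone averaged. Benjamini-Hochberg adjustment was made per comparison, and an adjusted p under 0.05 counted as a call. The recovery and the fit were tested on simulated data. Python 3.11.15, numpy 2.4.6, pandas 2.3.3 and matplotlib 3.10.9 were used. Named assays are the members, the 5 with the highest Pearson r to each over 26 samples and the 5 with the largest drop in islet replicate 1; A57, the plate neighbours A11, A13, B63 and B65, the assays closest to B64 without 1 treated sample and those closest to A12 outside islets were added after values were seen. The members and rules were chosen with earlier results of these data known.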

Additional observations from a re-analysis of the deposited data

Results flagged for a closer look

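The signs of the activin responses of clones 2 and 3 at B64 differed, but clone 2 had a response clearly away from 0 in 1 sample only. Treated minus untreated was 0.03 and 29.29 on the log2 scale in the samples of clone 2, and -1.38 and -1.35 in those of clone 3. Subtracting the response of clone 2 from that of clone 3 gave -16.02 (SE 9.30, limma adjusted p = 0.954), and no assay of 273 was called by limma (14 at an unadjusted p under 0.05). It was -1.39 (adjusted p = 0.991) without replicate 2 of treated clone 2, the sample with a Ct of 3.26, and -30.66 (adjusted p = 7.13e-08) without replicate 1, which leaves that value alone for the clone. Each clone has 1 untreated sample, and a lone treated sample is assumed to vary like the other groups.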

How the results depend on the processing

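Leaving A12 and B64 out of the reference changed nothing, since neither is in it. For A12 the difference of iPSC over fibroblasts was -0.75 relative to RNU6, 1.29 with quantile normalization, 1.05 on raw Ct and 1.01 with the limit at 32, none called. ESC over fibroblasts was 0.84, 0.83 and 1.10 under the latter 3, 2.54 with the limit at 40 and 2.07 with the groups compared fitted alone and in the exact permutation test, likewise not called. Of the settings that kept every sample, 10 of 14 were called for iPSC and 6 of 12 for ESC over fibroblasts. The exact permutation test was counted by its unadjusted p. Leaving out 1 sample gave 1.90 to 2.86 and 1.53 to 2.70. Islets minus hepatocytes was 13.70 with quantile normalization, 15.97 on raw Ct, 14.07 with the limit at 32 and 18.35 relative to RNU6 (14.62 to 15.50 leaving out 1 sample), and 12.24 to 13.52 for islets minus the highest other group. Signs turned without a call for A12 in iPSC over ESC (-0.10 with the limit at 32, -0.38 with missing values instead, -0.38 to 0.70 leaving out 1 sample) and under activin (-0.24 with the limit at 32; 0.19 to 1.29).

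For B64 no call arose except the one between clones given above (-30.66 to -1.39 leaving out 1 sample). Signs turned for iPSC over fibroblasts (1.05 with the limit at 32, 0.40 with missing values, 0.18 with the median as reference, -0.47 to 0.31 leaving out 1 sample), ESC over fibroblasts (-0.49 with quantile normalization, -0.58 on raw Ct), D3 over R1 (0.20 on raw Ct, -1.47 to 0.09) and activin (-0.29 with Ct below 12 as missing, -0.29 to 14.34). Islets minus the highest other group, 1.79, became -0.93 with missing values and -1.95 (without islet replicate 1) to 7.72 (without replicate 2 of treated clone 2). The median reference and the treatment of Ct below 12 were chosen after seeing the data. Causes beyond the sample at 3.26 were not tested.

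The replicate block by number gave 2.23 (adjusted p = 0.032) for A12 in iPSC over fibroblasts. Same-numbered samples correlated by -0.092 to 0.230 there and by -0.110 to 0.177 between ESC lines, so numbers were not taken as pairs. The clone block for activin, 1.78 for A12 and 6.65 for B64, changed no call. Most values of B64 outside islets are at or near the limit, where differences are bounds.
Requiring a Ct below 35 in every sample kept A12 for activin only (0.74) and B64 for none. Settings with RNU6 were not run for ESC or for islets against groups other than hepatocytes, and the clone difference was not run without untreated clone 2 or 3, its only baseline.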

Other observations

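Over the 23 samples outside islets, the assays whose level followed A12 most closely were C67 (r = 0.740), A87 (0.715), C58 (0.703), C06 (0.701) and C61 (0.686), chosen after their values were seen. A87 was also among the closest over all 26 samples. C67 and C61 were not below 35 in any islet sample, whereas C58 had a Ct of 22.1, 22.9 and 23.6 and C06 one of 23.3, 24.2 and 24.9 in islets, against 30.4, 30.4 and 31.2 and 32.8, 32.3 and 33.1 in hepatocytes. No p is given for these correlations, in which all assays of a sample share its depth. A87 shares the reference of A12, whereas C67, C58, C06 and C61 have the reference of plate C.

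Position A11, next to A12 by number, had a Ct of 36 and 34.9 in islet replicates 1 and 2 and 10.7 in replicate 3, and the other neighbour, A13, had 27.0, 25.5 and 28.1. Next to B64, position B63 had 25.9, 27.7 and 27.3 in islets and 29.4 in replicate 2 of treated clone 2, and B65 had 29.2, 31.1 and 30.0 and 33.5. Of the 18 values below 12 in the table, 7 were in hepatocyte replicate 1.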
